A study of Mus musculus with 9 samples.

Results

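The measurements below concern 8 genes of the red cell lineage, read in whole mouse kidneys at E15.5, an embryonic stage at which the organ is still growing new nephrons. They were chosen by name: the heme synthesis enzyme Alas2, the anion exchanger Slc4a1, the erythropoietin receptor Epor, the transcription factor Klf1, the globin chaperone Ahsp, and the embryonic globins Hba-x, Hbb-y and Hbb-bh1. A row with the exact name was found for 7 of the 8, among 24138 loci. Ahsp was not analysed here.

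RNA-seq was done on 9 kidney samples, 3 per genotype, all on a C57BL/6J background and of mixed sex. MUT kidneys were Foxd1GC/+;Ntn1fl/fl, HET kidneys were Foxd1GC/+;Ntn1fl/+, and WT kidneys were Ntn1fl/fl without Cre. Foxd1GC is a knock-in of GFP and Cre. It therefore recombines Ntn1 in stromal progenitors and their descendants and leaves 1 working Foxd1 allele in MUT and HET but not in WT. The sex marker Xist was high in HET-3 and MUT-1 and in no WT library. The question of the study was what loss of the guidance cue Netrin 1 from the stroma does to kidney vessels, and its own comparison was MUT with HET. Levels were given as FPKM (fragments per kilobase of transcript, scaled to the mapped fragments of the library), a scale per length on which genes can be compared with each other. The number of reads per library was not given, so no counting error can be attached to a value, and precision comes from the spread of 3 libraries.

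Red cells of the embryo come in 2 waves. Primitive erythroid cells arise in the yolk sac and use the embryonic globins, Hba-x (zeta) on the alpha side and Hbb-y (epsilon-y) and Hbb-bh1 (beta-h1) on the beta side. Definitive cells mature in the fetal liver and use the adult globins. Maturing red cells lose their nucleus and circulate with globin message left in them, while messages of regulators such as Klf1 belong mostly to nucleated precursors. A kidney that does not make red cells would carry this RNA through the blood in its vessels. The paper stained erythroid cells inside vessels of control and MUT kidneys at E15.5. It adds that hemo-vasculogenesis, the forming of blood cells along with vessels, may also contribute. The source of the RNA in these kidneys was not tested. In RNA from a whole organ, fewer cells of a type and less RNA per cell cannot be told apart.

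The genes lie on 5 chromosomes of the mm10 build. Alas2 lies at chrX:150547385-150570622, Slc4a1 at chr11:102348820-102365281, Epor at chr9:21958899-21963576 and Klf1 at chr8:84901928-84905295. Hba-x stands at chr11:32276600-32278115, upstream of the 2 adult alpha-globin loci that begin at 32283672 and 32296489. Hbb-y (chr7:103851754-103853207) and Hbb-bh1 (chr7:103841638-103843162) share 1 cluster with the adult beta-globin loci that begin at 103826523 and 103812524. All 7 are protein-coding genes. The ends of the Slc4a1, Hbb-y and Hbb-bh1 loci are those of RefSeq, and those of the other 4 differ slightly from it.

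Promoter sequences from RefSeq (GRCm38.p6) were used for 5 of the 7 genes, and those of Slc4a1 and Hbb-bh1 were not analysed here. The 200 bases before each start are shown on the strand of the gene, because 3 of these genes (Alas2, Epor, Klf1) peaked in one library and the other 2 (Hba-x, Hbb-y) in another. Capitals mark GATAA, the core that GATA factors bind, CACCC, the core that Klf1 itself binds, and CCAAT, each on either strand, and ATAAA on the strand of the gene within 40 bases of the start.
Alas2, chrX:150547217-150547416, plus strand: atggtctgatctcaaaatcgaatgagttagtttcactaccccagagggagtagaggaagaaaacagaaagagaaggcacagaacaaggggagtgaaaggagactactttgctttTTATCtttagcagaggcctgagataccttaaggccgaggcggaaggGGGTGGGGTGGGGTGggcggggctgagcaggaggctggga
Epor, chr9:21963577-21963776, minus strand: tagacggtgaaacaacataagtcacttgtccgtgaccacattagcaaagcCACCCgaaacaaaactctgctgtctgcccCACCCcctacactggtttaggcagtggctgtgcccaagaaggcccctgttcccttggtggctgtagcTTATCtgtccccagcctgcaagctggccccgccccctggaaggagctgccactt
Klf1, chr8:84901782-84901981, plus strand: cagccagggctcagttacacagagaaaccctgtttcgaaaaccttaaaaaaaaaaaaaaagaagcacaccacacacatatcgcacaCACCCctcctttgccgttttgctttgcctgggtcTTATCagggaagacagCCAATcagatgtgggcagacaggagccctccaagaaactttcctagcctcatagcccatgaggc
Hba-x, chr11:32276400-32276599, plus strand: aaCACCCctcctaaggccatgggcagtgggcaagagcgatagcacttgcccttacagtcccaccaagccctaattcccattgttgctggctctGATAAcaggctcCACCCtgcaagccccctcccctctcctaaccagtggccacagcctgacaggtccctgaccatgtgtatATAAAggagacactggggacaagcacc
Hbb-y, chr7:103853208-103853407, minus strand: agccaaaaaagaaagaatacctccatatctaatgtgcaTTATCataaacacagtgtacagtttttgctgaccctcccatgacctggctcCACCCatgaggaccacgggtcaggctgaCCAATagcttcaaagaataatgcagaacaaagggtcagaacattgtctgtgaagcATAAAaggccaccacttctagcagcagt

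All 5 promoters held both GATAA and CACCC, which 6.88% of the 32851 RefSeq mouse promoters do in the same window. GATAA alone was in 18.1% of all promoters and CACCC alone in 45.5%. CCAAT was in Klf1 and Hbb-y, against 29.3% of all promoters. ATAAA close to the start was in Hba-x and Hbb-y, against 5.50% of all promoters, and was not found in Alas2, Epor or Klf1. In Alas2 the 3 CACCC matches run end to end on the other strand, from position -40 to -26 before the start. These matches describe letters in a window, not bound sites.

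Hbb-y was the most abundant of the 7, with a mean of 46.4 FPKM over the 9 libraries, and ranked 1916 among the 24138 loci. Alas2 followed at 21.3 FPKM and Hba-x at 10.8. Epor had a mean of 4.36 FPKM, Slc4a1 of 2.44, Klf1 of 1.33 and Hbb-bh1 of 0.735. Alas2, Hba-x and Hbb-y reached the study's minimum of 5 FPKM in the mean of a genotype and the other 4 did not. Of the neighbours in this order, Hba-x (7.46 to 15.7 FPKM) and Epor (3.47 to 6.67 FPKM) did not overlap over the 9 libraries, while the ranges of each other pair did.

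Before the genotypes are compared, 1 library has to be set apart. HET-2, the second HET library, carried the highest level of all 4 erythroid genes that are not globins, at least 1.2 times the next library in each. Of 13852 loci with a mean of at least 0.5 FPKM, 14.3% were highest in HET-2 and 1.83% were highest there by that factor. It also stood apart in messages of liver cells and of granulocyte precursors so the comparisons of these genes with HET are given with and without it.

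**Figure D1:**
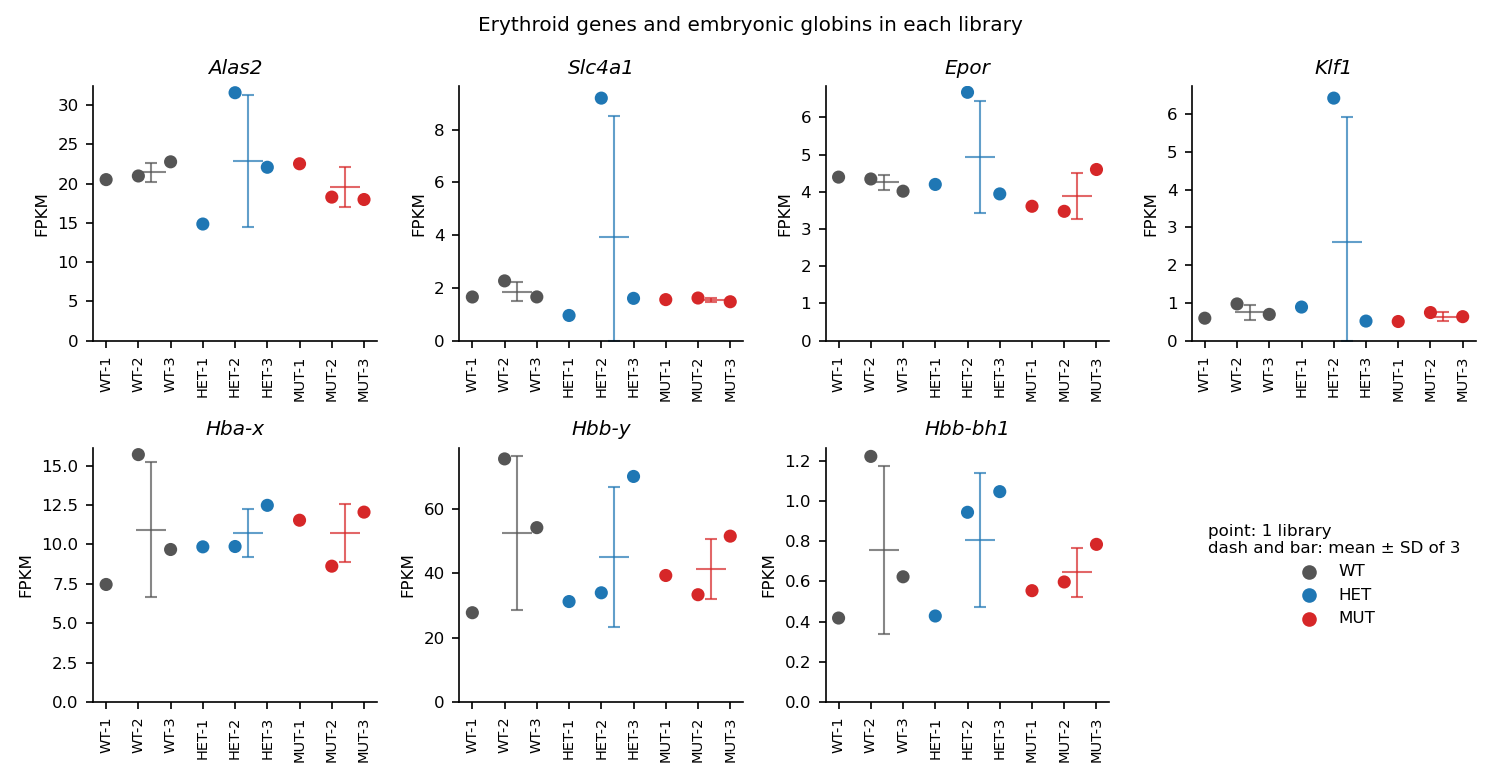
FPKM (vertical axes, from 0) of each gene in the 9 libraries (horizontal axes), coloured by genotype, with the mean and SD of 3 libraries beside the points and bars ended at 0. HET-2 is the highest point in the upper row, reaching 6.43 FPKM for Klf1, while WT-2 is the highest in the lower row, reaching 75.6 FPKM for Hbb-y.

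Klf1, the zinc finger factor that switches on much of the red cell program, showed the widest range. It was at 0.592, 0.971 and 0.693 FPKM in WT, at 0.888, 6.43 and 0.516 FPKM in HET, and at 0.505, 0.742 and 0.633 FPKM in MUT. HET-2 was thus 6.62 times the next library and 9.69 times the median of the other 8, which did not separate by genotype.

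Slc4a1, the band 3 chloride and bicarbonate exchanger of the red cell membrane, was at 1.65, 2.26 and 1.66 FPKM in WT, at 0.952, 9.20 and 1.60 FPKM in HET, and at 1.55, 1.61 and 1.47 FPKM in MUT. HET-2 was 4.06 times the next library. HET-1, of the same genotype, was the lowest of the 9, so the HET libraries enclosed all others. The 3 MUT values lay just below the 3 WT values, without overlap.

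Epor, through which erythropoietin keeps red cell precursors alive, was at 4.39, 4.34 and 4.02 FPKM in WT, at 4.20, 6.67 and 3.94 FPKM in HET, and at 3.61, 3.47 and 4.60 FPKM in MUT. The excess of HET-2 over the next library was smaller here, at 1.45 times. Without HET-2 the 3 genotypes shared 1 range of 3.47 to 4.60 FPKM.

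Alas2, the erythroid form of the first enzyme of heme synthesis, was at 20.5, 21.0 and 22.8 FPKM in WT, at 14.9, 31.6 and 22.1 FPKM in HET, and at 22.5, 18.3 and 18.0 FPKM in MUT. Both extremes were HET libraries, HET-2 at 1.39 times the next highest and HET-1 the lowest. Alas2 is X-linked. The 2 libraries with high Xist, HET-3 (187 FPKM) and MUT-1 (173 FPKM), had 22.1 and 22.5 FPKM of Alas2, within the range of the other 7, where Xist was at most 1.25 FPKM.

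The embryonic globins followed another order. Hbb-y was at 27.8, 75.6 and 54.3 FPKM in WT, at 31.3, 34.0 and 70.2 FPKM in HET, and at 39.4, 33.4 and 51.6 FPKM in MUT. WT-2 and HET-3 were the highest libraries and WT-1 and HET-1 the lowest, so both genotypes spanned nearly the whole range.

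Hba-x, the alpha-side partner in embryonic hemoglobin, was at 7.46, 15.7 and 9.68 FPKM in WT, at 9.85, 9.87 and 12.5 FPKM in HET, and at 11.5, 8.62 and 12.1 FPKM in MUT. Hbb-bh1, a beta-like globin used early in primitive cells, was at 0.418, 1.22 and 0.623 FPKM in WT, at 0.428, 0.944 and 1.05 FPKM in HET, and at 0.554, 0.597 and 0.784 FPKM in MUT. All 3 embryonic globins were highest in WT-2 and lowest in WT-1, a 2.10-fold range for Hba-x, 2.72-fold for Hbb-y and 2.92-fold for Hbb-bh1. Over all loci with a mean of at least 0.5 FPKM, 5.96% were highest in WT-2. HET-2 was in the middle for Hba-x, at 0.923 times the median of the other 8 libraries, and was 0.747 times that median for Hbb-y. For Hbb-bh1, the least abundant of the 3, it was 1.55 times that median and next in order after WT-2 and HET-3.

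Over the 9 libraries the log2(FPKM + 1) of Hba-x and Hbb-y had a Pearson r of 0.84 (Spearman rho 0.80), Hbb-y and Hbb-bh1 an r of 0.79 (rho 0.85), and Hba-x and Hbb-bh1 an r of 0.78 (rho 0.78). Leaving out HET-2 gave 0.85, 0.94 and 0.86. Among the other 4 genes, r was 0.95 for Slc4a1 and Klf1 and 0.89 for Epor and Klf1 with HET-2, and 0.061 and 0.26 without it, while Alas2 and Slc4a1 had an r of 0.85 with HET-2 and 0.70 (rho 0.55) without it. Klf1 and Hbb-y had an r of -0.24 with HET-2 and 0.086 without it. These are descriptions of 9 libraries that share 1 normalization, and the points of 1 genotype are few.

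**Figure D2:**
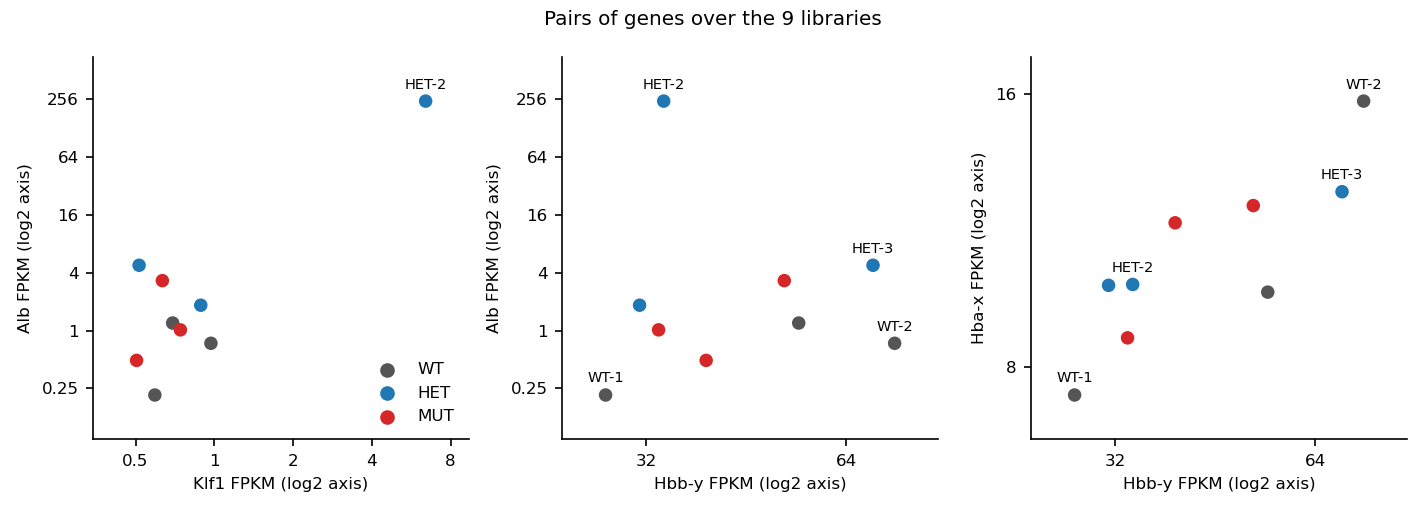
FPKM of Alb against Klf1, Alb against Hbb-y, and Hba-x against Hbb-y in the 9 libraries, each axis on a log2 scale and each point 1 library coloured by genotype. HET-2 stands alone for Klf1 (6.43 FPKM) and Alb (244 FPKM) and sits among the other libraries for Hbb-y (34.0 FPKM).

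MUT was compared with HET first, to ask whether loss of stromal Ntn1 changed the erythroid RNA in the kidney. None of the 3 genes that reached the minimum passed limma's test on log2(FPKM + 1) at an adjusted p of 0.05, where 0% of the 10081 loci tested did (0 called, and 636 with an unadjusted p under 0.05). Alas2 had a mean of 19.6 ± 2.55 FPKM in MUT and 22.8 ± 8.40 FPKM in HET (SD, n = 3 each). Its log2 difference was -0.16 (SE 0.21, 95% interval -0.63 to 0.31, limma adjusted p 0.853). Without HET-2 the difference was 0.10, in the other direction.

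Hba-x had means of 10.7 ± 1.85 FPKM in MUT and 10.7 ± 1.51 FPKM in HET (SD, n = 3 each), a log2 difference of -0.0046 (95% interval -0.32 to 0.31, limma adjusted p 0.994), or -0.056 without HET-2. Hbb-y had means of 41.5 ± 9.29 and 45.1 ± 21.7 FPKM (SD, n = 3 each), a log2 difference of -0.046 (95% interval -0.63 to 0.54, limma adjusted p 0.972), or -0.20 without HET-2. These intervals still allow a Hbb-y level in MUT well above or below that in HET. The differences of Hba-x and Hbb-y turned above 0 without HET-3 (0.099 and 0.32) and without MUT-2 (0.13 and 0.095).

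The 4 genes under the minimum were compared by an exact two-sided permutation test, which cannot go below 0.1 with 3 libraries against 3. Klf1 had means of 0.626 ± 0.119 FPKM in MUT and 2.61 ± 3.31 FPKM in HET, a log2 difference of -0.77 (exact p 0.3, n = 3 each). Slc4a1 had means of 1.55 ± 0.0711 and 3.92 ± 4.59 FPKM, a log2 difference of -0.55 (exact p 0.8). Both SDs of HET exceed their means, since HET-2 alone lies high. Without HET-2 the differences were -0.059 for Klf1 and 0.18 for Slc4a1.

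Epor differed by -0.26 between MUT and HET (exact p 0.4), or -0.058 without HET-2, and Hbb-bh1 by -0.12 (exact p 0.5), or -0.058 without HET-2. All 7 differences were below 0 with HET-2 in, and 5 of them without it. In 0 of the 7 genes did the 3 MUT libraries lie apart from the 3 HET libraries, against 9.7% of the 13852 loci with a mean of at least 0.5 FPKM.

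MUT and WT differ in Ntn1, in Cre and in the Foxd1 allele together. They also differ in sex make-up, since Xist was high in MUT-1 (173 FPKM) and at most 0.037 FPKM in WT. None of the 3 genes tested by limma passed in this comparison, where 0% of 10096 loci did (0 called, and 65 with an unadjusted p under 0.05). The log2 differences were -0.13 for Alas2 (95% interval -0.41 to 0.15), 0.020 for Hba-x (-0.49 to 0.53) and -0.25 for Hbb-y (-0.93 to 0.44), each with a limma adjusted p of 1.00. Hbb-y averaged 41.5 FPKM in MUT and 52.6 ± 24.0 FPKM in WT (SD, n = 3), and leaving out WT-2 turned its difference to 0.068. For Alas2 the difference was -0.23 without MUT-1 and -0.073 without MUT-3.

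Slc4a1 was the 1 gene of 7 whose 3 MUT libraries did not overlap the 3 WT libraries, where 4.02% of the 13852 loci did not. Its MUT values reached 1.61 FPKM and its WT values began at 1.65 FPKM, a log2 difference of -0.16 with the smallest exact p that 3 against 3 can give, 0.1. Without WT-2 the difference was -0.060, and without WT-1 or WT-3 it was -0.21. Epor, Klf1 and Hbb-bh1 had log2 differences of -0.11, -0.10 and -0.069 with exact permutation p of 0.4, 0.5 and 0.8. Leaving out 1 library moved these by over 1.5 times, Epor to -0.047 without MUT-2 and -0.21 without MUT-3, Klf1 to -0.016 without WT-2, and Hbb-bh1 to 0.11 without WT-2.

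HET and WT differ in 1 Foxd1 allele, Cre and 1 floxed Ntn1 allele. Their sex make-up differs too, since Xist was high in HET-3 (187 FPKM) and at most 0.037 FPKM in WT. None of the 3 genes passed limma's test here, where 0% of 10105 loci did (0 called, and 108 with an unadjusted p under 0.05). Alas2 differed by 0.028 (95% interval -0.44 to 0.50), Hba-x by 0.025 (-0.45 to 0.50) and Hbb-y by -0.20 (-0.99 to 0.59), each with a limma adjusted p of 0.998. Without HET-2 these differences were -0.23 for Alas2, in the other direction, 0.076 for Hba-x and -0.049 for Hbb-y. Leaving out WT-2 gave 0.30 for Hba-x and 0.11 for Hbb-y, and leaving out WT-1 gave -0.19 and -0.59. Klf1 differed by 0.67 (exact p 0.7), but by -0.045 without HET-2. Slc4a1 differed by 0.39 (exact p 1), and by -0.34 without HET-2, and Epor by 0.15 (exact p 0.9), and by -0.050 without it. Hbb-bh1 differed by 0.051 (exact p 0.9), and by -0.011 without HET-2. In 0 of 7 genes did the groups lie apart, against 4.33% of the 13852 loci.

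**Figure D3:**
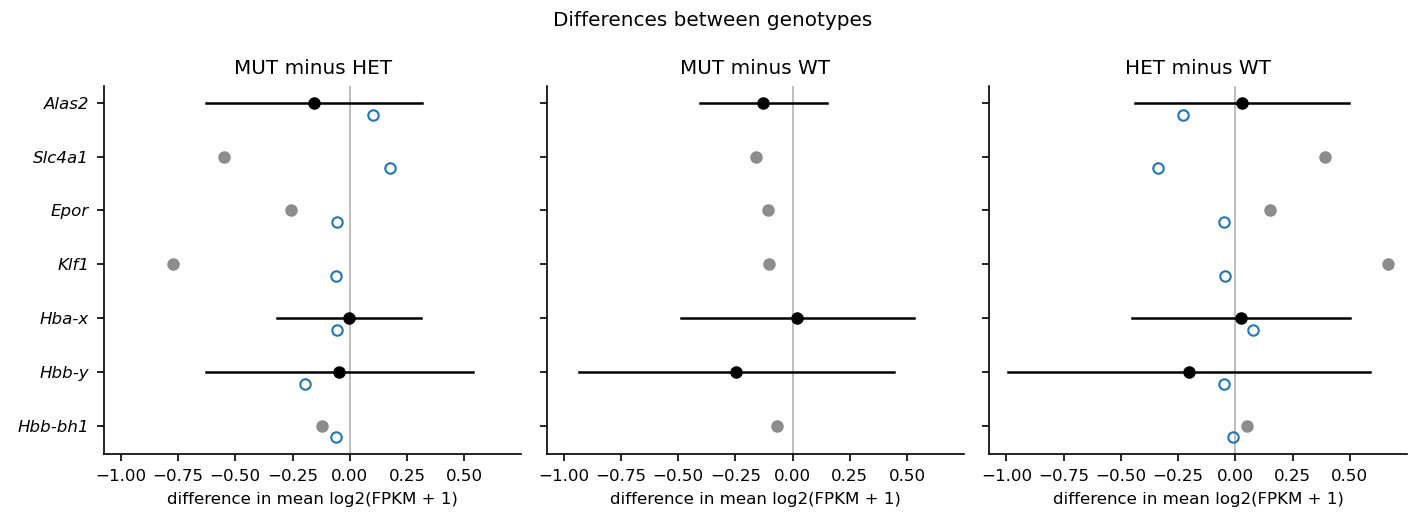
Difference in mean log2(FPKM + 1) for each gene in the 3 comparisons. Black points have a 95% interval from limma (lines), grey points are genes under 5 FPKM with no interval, and open blue points leave out HET-2, which moves Klf1 in MUT minus HET from -0.77 to -0.059 and leaves Hba-x near 0.

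The spread within genotypes was large for Hbb-y and Hba-x with and without HET-2. The SD of log2(FPKM + 1) within genotypes was 0.58 for Hbb-y, 0.34 for Hba-x and 0.32 for Alas2, against a median of 0.16 over the 9978 loci with a mean of at least 5 FPKM. Of those loci, 99.1% had a smaller SD than Hbb-y, 96.4% a smaller one than Hba-x and 95.6% a smaller one than Alas2. Hbb-bh1, under the minimum, had an SD of 0.26 with HET-2 and 0.28 without it. Without HET-2 the SD was 0.61 for Hbb-y and 0.36 for Hba-x but fell to 0.21 for Alas2, and it went from 0.73 to 0.16 for Klf1 and from 0.74 to 0.17 for Slc4a1.

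The adult globins give the scale of the globin RNA as a whole, the source of which was not tested. The 2 adult alpha-globin loci carry the joint name of Hba-a1 and Hba-a2, near-identical copies between which reads cannot be divided with certainty, and the same holds for the adult beta loci named Hbb-b1 with Hbb-bs, and Hbb-b2. Adult alpha-like FPKM summed to between 766 (MUT-3) and 910 (HET-1) in 8 libraries and to 1484 in HET-2. Adult beta-like FPKM summed to between 1402 and 1906 in those 8 and to 2510 in HET-2. HET-2 was therefore above every other library in adult globin, while each of the 3 embryonic globins was higher in at least 1 other library.

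The embryonic share of the alpha-like globin FPKM was 1.28 ± 0.403% in WT, 1.11 ± 0.469% in HET and 1.30 ± 0.229% in MUT (SD, n = 3 each). The embryonic share of beta-like globin FPKM, Hbb-y plus Hbb-bh1, was 3.20 ± 1.32% in WT, 2.59 ± 1.63% in HET and 2.60 ± 0.935% in MUT. The genotypes differed by less than the spread of their libraries. HET-2 had the lowest share on both sides, 0.661% and 1.37%, and WT-2 the highest, 1.72% and 4.49%. Next to WT-2 stood HET-3 with 1.60% and 4.44%, and MUT-3 with 1.55% and 3.60%.

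**Figure D4:**
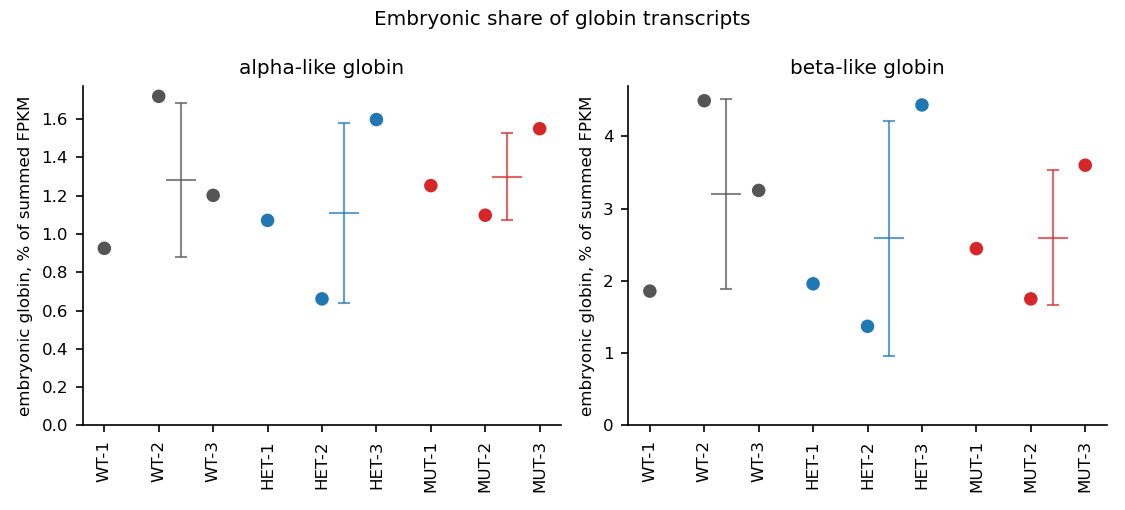
Embryonic globin as a percent of the summed FPKM of alpha-like (left) and beta-like (right) globin loci in each library, with the mean and SD of 3 libraries per genotype (WT grey, HET blue, MUT red), axes from 0. The low point of both panels is HET-2 (0.661% and 1.37%), and each genotype holds at least 1 library above and 1 below the mean of all 9 (1.23% and 2.80%).

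Within the beta-like pair, Hbb-y exceeded Hbb-bh1 by 55.9 to 87.1 times in 8 libraries and by 36.0 times in HET-2. Across the sides, Hbb-y exceeded Hba-x by 3.17 to 5.62 times, and HET-2 with 3.44 times was inside this range. The total of all globin loci was 4039 FPKM in HET-2 and 2233 to 2726 FPKM in the other 8.

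Other genes of the lineage were read from 7 lists of adult globins, regulators, heme enzymes, iron and heme carriers, membrane proteins, late genes and Epo receptor signalling, with 86 loci. Of the 70 with a mean of at least 0.5 FPKM, 45 were highest in HET-2 and 25 by at least 1.2 times, against the 14.3% and 1.83% of all loci. The mean includes HET-2, in the lists as over all loci. Some list loci reached it only through HET-2 and could only be highest there, such as Hemgn (3.71 FPKM, at most 0.223 FPKM elsewhere). In limma's tests 0 of 47 list loci passed in any of the 3 comparisons, where 0% of all loci tested did. In MUT minus HET 15 of the 47 were above 0 and 32 below, and without HET-2 27 were above and 20 below.

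Of the 8 heme synthesis enzymes 0 passed in any comparison, where 0% of all loci tested did. In MUT minus HET 7 of 8 had a negative log2 difference with a median of -0.21 beside a median of -0.016 over all loci tested. Without HET-2, 5 of 8 were negative with a median of -0.13. In HET minus WT 8 of 8 were positive with a median of 0.16, and 6 of 8 with a median of 0.052 without HET-2. Urod, the most abundant of them, was at 41.0, 60.2 and 56.2 FPKM in WT, at 57.0, 66.8 and 54.7 FPKM in HET, and at 42.7, 40.7 and 59.6 FPKM in MUT. Fech, which inserts the iron, was at 23.8 FPKM in HET-2 and 17.5 to 18.6 FPKM elsewhere.

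The 4 adult globin loci tested were all below 0 in MUT minus HET, with a median of -0.24, while without HET-2 2 were above and 2 below with a median of 0.019. Late erythroid genes had a median of -0.18 in that comparison, 7 of 8 below 0, and -0.019 without HET-2. Among them Blvrb, a heme breakdown enzyme, was at 47.7 FPKM in HET-2 and 18.6 to 24.7 FPKM elsewhere, while Prdx2, an abundant red cell peroxiredoxin, was at 698 FPKM in HET-2 within 512 to 725 FPKM elsewhere. Iron and heme carriers had a median of -0.11, with 6 of 7 below 0, and -0.095 without HET-2. The transferrin receptor Tfrc, which brings iron into precursors and other dividing cells, was lowest in HET-2, at 32.9 FPKM against 34.0 to 51.2 FPKM.

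Membrane and skeleton genes had a median of 0.026, with 3 of 6 above 0, erythroid regulators a median of 0.18, with 4 of 6 above 0, and Epo receptor signalling genes a median of 0.022, with 5 of 8 above 0. Without HET-2 these medians were 0.061 (5 of 6 above 0), 0.20 (5 of 6) and 0.060 (7 of 8). The abundant members of these lists are used by many cell types, among them Ldb1 (68.9 to 90.8 FPKM), Epb41 (31.1 to 39.5 FPKM) and Bcl2l1 (26.2 to 33.7 FPKM). Members more restricted to red cell precursors were mostly under the minimum. Chosen after their values were seen, Gata1 was at 2.27 FPKM in HET-2 and 0.0669 to 0.244 FPKM elsewhere, and the Rh protein gene Rhd at 7.97 FPKM and 0.241 to 0.540 FPKM. Some other members were not higher in HET-2, among them Zfpm1, Sox6, Myb and Foxo3 of the regulators at 0.87, 0.99, 0.97 and 0.77 times the median of the other 8 libraries and Xk of the membrane genes at 0.93 times. The median ratio to the 9 libraries in HET-2 was 1.07 over the 12 regulators and 1.26 over the 13 membrane and skeleton genes that averaged 0.5 FPKM or more, HET-2 included.

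**Figure D5:**
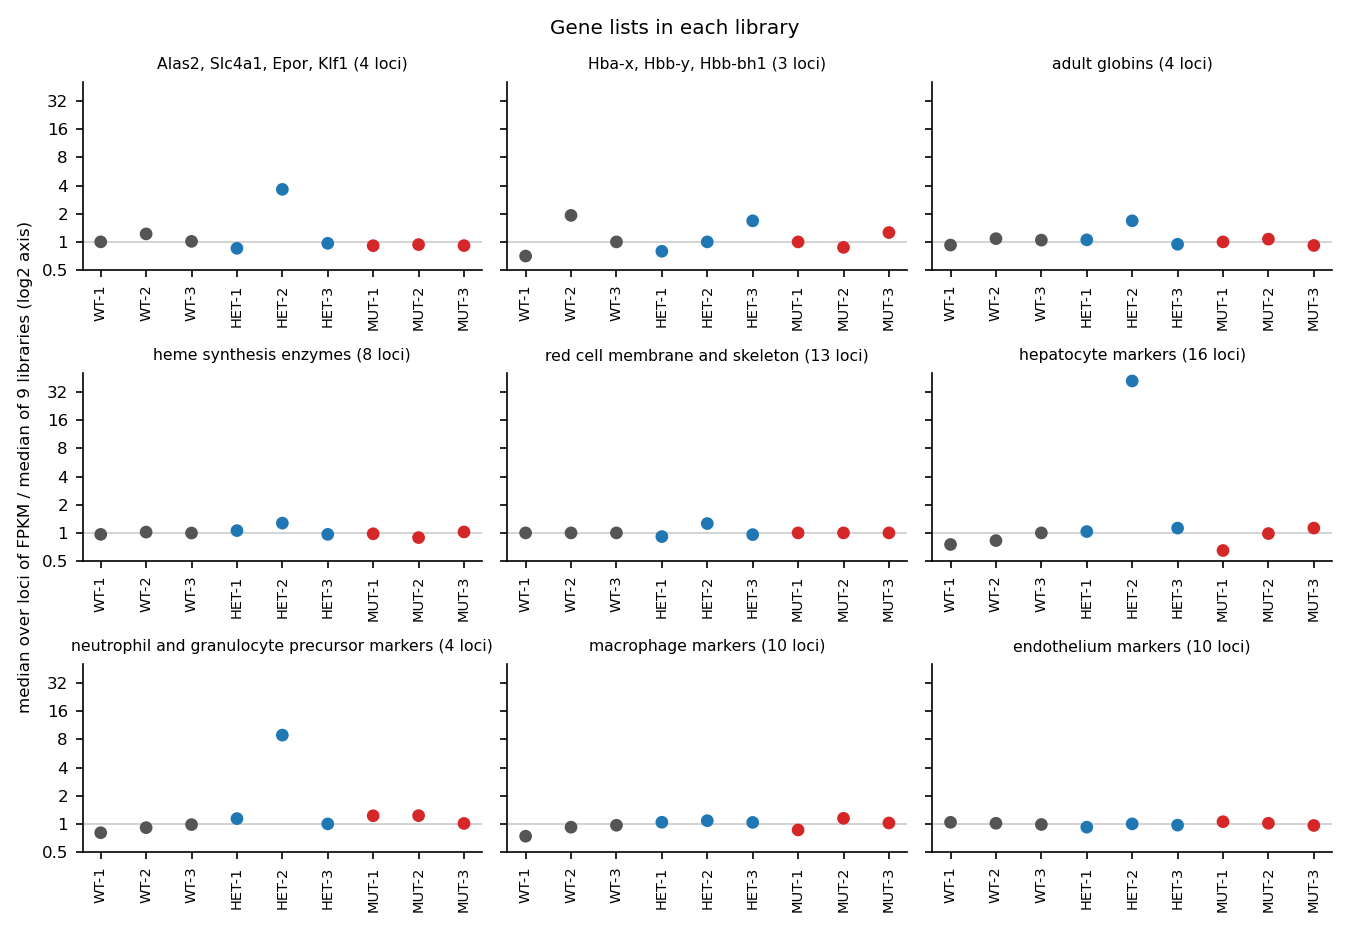
Median over the loci of a list of FPKM divided by the median of the 9 libraries for that locus (vertical axis, log2 scale) in each library (WT grey, HET blue, MUT red), for loci with a mean of at least 0.5 FPKM. That mean includes HET-2, so some loci are in a list only through HET-2. HET-2 is at 3.65 for Alas2, Slc4a1, Epor and Klf1, 42.2 for hepatocyte markers and 1.00 for endothelium markers, and WT-2 and HET-3 lead for Hba-x, Hbb-y and Hbb-bh1 at 1.92 and 1.68.

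Markers of other cell types in HET-2 were read beside these values. The 16 of 20 hepatocyte markers that reached a mean of 0.5 FPKM over the 9 libraries were all highest in HET-2. That mean includes HET-2, and some markers reached it only through HET-2, such as Apoh (10.6 FPKM, at most 0.304 FPKM elsewhere). For these the count was set by the filter. Apob, Apoc3, Serpina1c and Itih3, below the minimum, were highest in HET-2 too. All 20 loci summed to 911 FPKM in HET-2 and to 35.9 to 62.7 FPKM elsewhere. In HET-2 albumin (Alb) was the most abundant at 244 FPKM, against 0.213 to 4.77 FPKM elsewhere. Afp was at 217 FPKM there against 22.6 to 44.3 FPKM elsewhere, and had the higher mean over the 9 libraries (51.8 against 28.6 FPKM). Neutrophil and granulocyte precursor markers summed to 58.6 FPKM in HET-2 and to 6.17 to 10.1 FPKM elsewhere. S100a8 led them at 26.2 FPKM, and Ctsg was listed at 0 in 6 of the other 8 libraries. Fetal liver at this age holds hepatocytes, erythroid precursors and granulocyte precursors together, and the part of these cells in the HET-2 values was not tested.

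The sums of markers of 5 other kinds of cell differed less in HET-2. Endothelium markers summed to 333 FPKM there and to 306 to 340 FPKM elsewhere, with Cldn5 the most abundant. Kidney markers summed to 425 FPKM against 373 to 486 FPKM. HET-2 had the highest sum of macrophage markers at 95.5 against 57.1 to 92.6 FPKM, megakaryocyte and platelet markers at 20.0 against 12.5 to 18.6 FPKM, and adrenal cortex markers at 4.50 against 2.42 to 3.80 FPKM. Gene by gene, 5 of the 10 macrophage markers were highest in MUT-2 and 4 in HET-2, with median ratios to the 9 libraries of 1.15 and 1.08. Among the adrenal cortex markers the most abundant, Mc2r, was highest in MUT-3 at 3.01 FPKM and was at 2.41 FPKM in HET-2, while Hsd3b1, a steroid-synthesis enzyme, was at 0.921 FPKM in HET-2 and at most 0.034 FPKM elsewhere. Of the 4 megakaryocyte and platelet markers with a mean of at least 0.5 FPKM, 3 were highest in HET-2 by at least 1.2 times, and their median ratio to the 9 libraries was 1.53 there and 1.14 in HET-3, while Pf4, the most abundant, was highest in MUT-3. The kidney label held in every library, with the nephron progenitor genes Six2 at 57.8 to 107 FPKM and Cited1 at 73.4 to 121 FPKM.

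Profiles were compared among 9928 loci with a mean of at least 5 FPKM over the 9 libraries, HET-2 included. The 10 closest to the mean profile of Alas2, Slc4a1, Epor and Klf1 were Apoa1, Apoa2, Trf, Apoc1, Ahsg, Rbp4, Ttr, Apom, S100a8 and Alb, with Pearson r from 0.91 to 0.96. Most encode plasma proteins of the liver. Some reached that minimum only through HET-2, such as Apoa1 (88.4 FPKM there and at most 1.34 FPKM elsewhere). The mean profile was itself highest in HET-2. The filter and the profile thus both favour genes high in HET-2, and the list is no separate support. Spearman's rho was between -0.083 and 0.47. Without HET-1 and HET-2, the libraries farthest from the median, r lay between -0.71 and 0.55.

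Among the same loci, the 10 genes closest to the mean profile of the embryonic globins were Wdpcp, Ttc23, Fads2, Crabp2, Edc3, Snord104, Pus7l, Adat2, Bbs4 and Traip, with r from 0.82 to 0.90 and rho from 0.68 to 0.92. Without WT-1 and WT-2 r lay between 0.62 and 0.78. Crabp2, a retinoic acid carrier, ranged from 28.8 FPKM in WT-1 to 48.5 FPKM in MUT-3, with WT-2 at 48.1 FPKM. Snord104, a small nucleolar RNA, was listed at 0 in 7 libraries and reached the minimum only through WT-2 and HET-3. Over 9 libraries that share 1 normalization these r describe likeness and no more.

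The sum of FPKM did not run in the order of the embryonic globins. WT-1, lowest in all 3, had the smallest sum (453753) and WT-2 the largest (545598), but HET-3, second in Hbb-y, had the third smallest (490206) and HET-1, second lowest in Hbb-y, the third largest (534931). The spacing of the lowest values put the depth of WT-2 at about 0.570 of that of WT-1 and of MUT-3 at 0.616, while HET-3, second in Hbb-y, was at 1.05. Over the 12 kidney markers r with Hbb-y ran from -0.70 to 0.68, the highest being Eya1. The lowest r were those of the podocyte gene Nphs1, -0.70 (rho -0.67), and of Slc34a1 of the proximal tubule, -0.64 (rho -0.70). Without HET-3 and WT-2, r was -0.57 for Nphs1, -0.52 for Slc34a1 and 0.65 for Eya1. Nphs1 was at 7.05 FPKM in WT-1, 2.91 FPKM in WT-2 and 1.92 FPKM in HET-3. The part of depth or of tissue composition in the embryonic globin values was not tested.

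Ntn1 and Foxd1 were read to check the labels. Ntn1 was at 24.3 ± 5.75 FPKM in WT, 13.6 ± 2.53 FPKM in HET and 12.8 ± 3.22 FPKM in MUT (SD, n = 3 each), so its level separated WT from HET and MUT but did not tell HET from MUT. Foxd1 was at 25.8 to 33.7 FPKM in WT and at 20.2 to 24.8 FPKM in the 6 libraries with the knock-in allele. In HET-2, Ntn1 was at 12.0 FPKM and Foxd1 at 20.2 FPKM, each the lowest of the 3 HET libraries. HET-1 had 12.3 FPKM of Ntn1 and 21.7 FPKM of Foxd1, and HET-3 had 16.5 and 21.5 FPKM.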

How the data were processed

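The authors prepared stranded mRNA libraries from whole E15.5 kidneys, mapped the reads by STAR, built transcripts by Cufflinks and took FPKM per locus from Cuffdiff. The deposited FPKM enter here unchanged for 24138 loci. The submitters' processing notes name mm10, and versions and annotation are not given in the sources used here. The authors' genotype means were not used. FPKM hold no read counts, so the number of reads and the counting error are unknown. Depth relative to WT-1 was only estimated, from the spacing of the lowest values.

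For each pair of genotypes, limma 3.58.1 (R 4.3.3, lmFit and eBayes with trend, two-sided) was run on log2(FPKM + 1) for loci averaging 5 FPKM or more in 1 of the 2, without a block, and p-values were adjusted by Benjamini-Hochberg (threshold 0.05). Adding 1 understates changes of low genes. Genes below the minimum were compared by exact permutation. The 3 kidneys of each genotype came from 3 crosses of the same kind, per the study's methods, and which library came from which cross is not given in the sources used here, so p-values measure the spread between these samples. The fit was tested on simulated data.

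The genes and lists were chosen with earlier results of these data known. Named genes are the 8 chosen, examples of each list by highest mean FPKM, the 10 genes most correlated with each mean profile, Ntn1 and Foxd1, beside genes said to be chosen later. The alternatives tried were pseudocounts of 0.1 and 3, a minimum of 1 FPKM or none, rescaling by median ratios or quantiles, a single fit of all 9 libraries, no trend, a replicate block and each library left out. Tables were written with pandas 2.3.3, scipy 1.17.1 and numpy 2.4.6 under Python 3.11.15. Starts in the files count from 0 and were raised by 1. Some list genes are not reported here by name.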

Additional observations from a re-analysis of the deposited data

How the results depend on the processing

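Pseudocounts, FPKM minimums, rescaling, 1 fit of all 9 libraries and the fit without a trend all called 0 loci in each comparison, and they turned the direction of 1 of 21 gene differences, Hba-x in MUT minus HET, to 0.011 under median-ratio rescaling. Low genes changed in size with the pseudocount, for example at 0.1 Klf1 in MUT minus WT from -0.10 to -0.22, and Hbb-bh1 from -0.12 to -0.22 in MUT minus HET and from 0.051 to 0.12 in HET minus WT, while at 3 Klf1 in MUT minus HET went from -0.77 to -0.48. With a replicate block 0 loci were called in MUT minus HET, MUT minus WT and HET minus WT, and those with an unadjusted p under 0.05 went from 636 to 494, from 65 to 201 and from 108 to 233. The deviations of libraries with the same number had correlations of -0.31, 0.053 and -0.13 in MUT and HET and of -0.26 to 0.55 in the other comparisons, so not every pair was over 0.1 and the numbers were not taken to pair the samples, although the kidneys came from 3 crosses. Joint globin names held adult globin symbols alone, so leaving out loci joined with other genes removed none and left the shares as they are. The smallest adjusted p of any of the 7 genes under any alternative was 0.480 (limma). Leaving out 1 library at a time called 0 to 3 loci in each of the 3 comparisons, Car3, Akr1b7, Sprr1a and loci of small nucleolar RNAs and microRNAs, chosen after their values were seen and with 0 of the 7 genes among them. The same step gave the following ranges of log2 difference, and the cause of each turn was not tested. In MUT minus HET it gave -0.42 (HET-1 out) to 0.10 (HET-2 out) for Alas2, -1.02 (HET-1 out) to 0.18 (HET-2 out) for Slc4a1, -0.088 (MUT-3 out) to 0.13 (MUT-2 out) for Hba-x, -0.26 (HET-1 out) to 0.32 (HET-3 out) for Hbb-y, -0.37 (HET-3 out) to -0.058 (HET-2 out) for Epor, -1.21 (HET-3 out) to -0.059 (HET-2 out) for Klf1 and -0.28 (HET-1 out) to -0.021 (HET-3 out) for Hbb-bh1. In MUT minus WT it gave -0.23 (MUT-1 out) to -0.073 (MUT-3 out) for Alas2, -0.21 (WT-1 out) to -0.060 (WT-2 out) for Slc4a1, -0.21 (MUT-3 out) to -0.047 (MUT-2 out) for Epor, -0.17 (WT-1 out) to -0.016 (WT-2 out) for Klf1 and, without WT-1 and without WT-2, -0.20 to 0.29 for Hba-x, -0.64 to 0.068 for Hbb-y and -0.21 to 0.11 for Hbb-bh1. In HET minus WT it gave -0.23 (HET-2 out) to 0.29 (HET-1 out) for Alas2, -0.34 (HET-2 out) to 0.86 (HET-1 out) for Slc4a1, -0.050 (HET-2 out) to 0.27 (HET-3 out) for Epor and -0.045 (HET-2 out) to 1.10 (HET-3 out) for Klf1. There the globins ran, without WT-1 and without WT-2, from -0.19 to 0.30 for Hba-x, -0.59 to 0.11 for Hbb-y and -0.090 to 0.23 for Hbb-bh1. The mean embryonic shares stayed within 1 SD, the widest being 1.67% to 3.20% of beta-like FPKM in HET. Read numbers are unknown, so genes below 1 FPKM, Klf1 and Hbb-bh1 in most libraries, may differ between libraries by counting error alone. The estimated depth was lowest in WT-2, at 0.570 of that of WT-1, and WT-2 was also the highest library for Hbb-bh1.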
